A study of Mus musculus with 16 samples.

Results

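A set of 10 secreted factors of the melanocyte stem cell niche was followed through whole mouse dorsal skin: Kitl, Edn1, Edn2, Edn3, Pomc, Asip, Tgfb1, Tgfb2, Tgfb3 and Hgf. They were taken by name as ligands known to act on melanocyte stem cells or their offspring, and make up 10 of the 55359 genes counted. The gene Asip (agouti signalling protein) is listed under its older symbol, a, with Ensembl identifier ENSMUSG00000027596.11. All but Pomc had enough reads for a test, so 9 of the 17531 genes tested belong to the group. Poly(A) RNA was sequenced in 16 libraries of male mice aged 8 weeks in telogen by their labels, when hair follicles rest. The mice were wild type (WT) or lacked both receptors of tumour necrosis factor (TNF), encoded by Tnfrsf1a and Tnfrsf1b (KO). Each genotype had 4 libraries without UVB (control) and 4 with the treatment labelled 3xUVB. The UVB dose, the time of sampling, the strain and which parts of the receptor genes the KO lacks are left unstated by the labels. Nothing there says that each library came from a separate animal, so p-values measure only how these libraries vary.

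Melanocyte stem cells rest in the bulge and secondary germ of the hair follicle and supply pigment cells to the growing hair and, after UVB, to the epidermis. Neighbouring keratinocytes, dermal papilla cells, fibroblasts and immune cells control them through secreted factors: KIT ligand and the endothelins promote survival, division and migration, and melanocortin made from Pomc switches on dark pigment through MC1R. Agouti opposes melanocortin at that receptor, TGF-beta holds melanocyte stem cells in quiescence, and hepatocyte growth factor acts on melanocytes through MET.

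Edn1, Edn2 and Edn3 encode endothelins, and the region that encodes their mature peptide shows how alike they are. The 63 bases below encode the 21-residue peptide of each gene, all in exon 2 and on the plus strand of GRCm38 (GENCODE vM21 transcripts), and capitals mark bases that differ from Edn1. They lie at chr13:42303649-42303711 for Edn1, chr4:120161951-120162013 for Edn2 and chr2:174761749-174761811 for Edn3.
Edn1: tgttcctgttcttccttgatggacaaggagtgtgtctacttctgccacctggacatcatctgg
Edn2: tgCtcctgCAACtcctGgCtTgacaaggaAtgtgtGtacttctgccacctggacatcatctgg
Edn3: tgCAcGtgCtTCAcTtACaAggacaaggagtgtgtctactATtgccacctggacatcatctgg
Edn2 differed from Edn1 at 10 bases and 3 residues, and Edn3 at 13 bases and 6 residues. The end of the stretch, which encodes the shared tail that binds the receptor, carried no difference in either gene.

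The libraries held 15644375 to 23200649 reads in genes. Tnfrsf1a averaged 143 ± 6.67 CPM (reads scaled to the library size) in untreated WT skin and 151 ± 8.87 in WT UVB, against 85.9 ± 5.42 and 95.8 ± 6.78 in the KO groups (SD, n = 4 each). Tnfrsf1b averaged 57.8 ± 13.4 and 40.9 ± 7.99 in WT against 20.8 ± 4.17 and 20.1 ± 5.54 in KO, and no KO library overlapped a WT library of the same treatment for either receptor. Reads from both genes therefore remained in the KO libraries. Markers of skin were present in every library, with summed CPM of 8057 to 60804 for 8 keratinocyte genes, 28873 to 62729 for 8 fibroblast genes and 69.7 to 125 for 10 melanocyte genes. Against the telogen label, 19 genes of growing (anagen) hair follicles summed to 1253 to 3197 CPM in WT control, 92.6 to 329 in KO control, 20.9 to 192 in WT UVB and 13.4 to 26.3 in KO UVB. That follicle gradient runs along both the UVB and the genotype comparisons, and its part in the ligand results was not tested. In whole skin, fewer cells of a type and less RNA per cell cannot be told apart.

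The ligands spanned a wide range of abundance. To compare genes with each other, CPM were divided by exon length in kb. On this scale WT control skin held most of Tgfb1 (10.2 ± 0.993 CPM per kb), Kitl (9.84 ± 0.78) and Tgfb3 (9.11 ± 0.331), which overlapped as neighbours. Edn1 (6.21 ± 1.01) and Tgfb2 (5.38 ± 0.727) formed a middle pair that overlapped each other and neither the group above nor the group below. Asip (1.05 ± 0.444), Hgf (0.668 ± 0.114) and Edn3 (0.516 ± 0.109) followed, each overlapping the next. Edn2 (0.269 ± 0.0266) and Pomc (0.213 ± 0.169) were lowest and overlapped each other (SD, n = 4 throughout). The order among the top genes changed between groups: Kitl led in WT UVB at 10.7 ± 0.301, above every library of Tgfb1 at 8.85 ± 0.964. In KO control, Tgfb2 stood at 9.29 ± 2.51 and overlapped its neighbours Tgfb1 (9.6 ± 0.873) and Kitl (8.69 ± 1.38), whereas in KO UVB it was the fifth gene at 5.76 ± 1.1. Asip, Hgf, Edn3, Edn2 and Pomc made up the lower 5 ranks in all 4 groups.

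**Figure D1:**
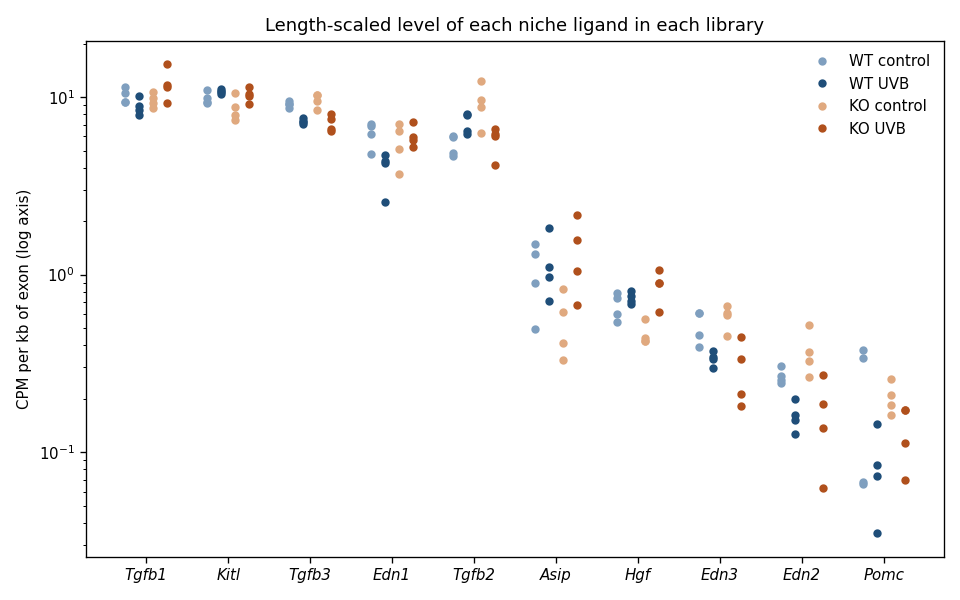
Length-scaled level (CPM per kb of exon, log axis) of each of the 10 ligands, ordered by their mean in WT control; each point is 1 library and colours give the 4 groups. Tgfb1, Kitl, Tgfb3, Edn1 and Tgfb2 lie well above the other 5 genes, and Tgfb2 shows the upward step in KO control.

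The number of ligands past the UVB test in each genotype depended on the fit. In the model of all 4 groups, 2 of 9 tested ligands were called in WT (edgeR, adjusted p under 0.05), both lower: Edn1 and Tgfb3. The share of all tested genes called there was 18.8% (10.2% higher and 8.6% lower), and the median log2 fold change was -0.20 over the ligands and -0.03 over all genes. In KO, 6 of 9 were called against 32.3% of all genes (17.2% higher and 15.1% lower): Hgf and Asip rose, and Tgfb3, Edn3, Tgfb2 and Edn2 fell, with a median of 0.12 against -0.02. An unadjusted p under 0.05 was reached by 4 of 9 ligands in WT and 8 of 9 in KO, against 32.9% and 43.2% of all genes. No ligand passed in the interaction, which subtracts the WT effect of UVB from the KO effect and in which 0.0228% of all genes were called. At an unadjusted p under 0.05 the interaction held 4 of the 9 (Tgfb2, Hgf, Tgfb1 and Edn1) against 12.8% of all genes, and DESeq2 called 1 of them and limma voom 2. A fit of the 2 groups of each genotype alone called 4 ligands in WT and 3 in KO, the reverse order. Over all genes that fit also called more in WT than in KO, so the reversal was not confined to the ligands. In KO it called 3506 genes against 5666 in the joint model. The larger number of calls in KO in the joint model is thus not a tested difference between the genotypes.

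**Figure D2:**
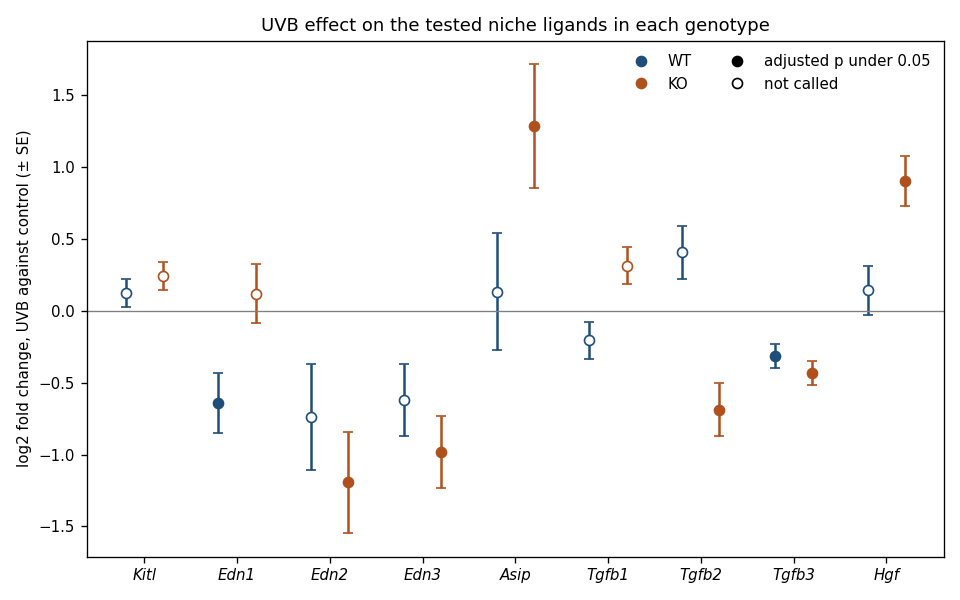
Log2 fold change of UVB against control (± SE, edgeR) for the 9 tested ligands in WT (blue) and KO (orange), with filled points for adjusted p under 0.05. Tgfb3 lies below 0 with filled points in both genotypes, whereas Tgfb2 is at 0.41 in WT and -0.69 in KO.

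Kitl, the ligand that melanoblasts and melanocytes need for survival and migration, stayed within a narrow band. Its levels were 54.5, 64.6, 58.4 and 55.1 CPM in untreated WT skin and 63.7, 61.4, 63.1 and 65.7 in WT UVB. KO control libraries held 62.5, 44.0, 52.2 and 46.8 CPM and KO UVB libraries 54.1, 61.3, 67.2 and 60.2. All 4 groups overlapped, and KO control library 2 was the lowest of the 16. The UVB difference was 0.13 ± 0.10 in WT (log2 ± SE, adjusted p = 0.401) and 0.24 ± 0.10 in KO (adjusted p = 0.0749), neither called. Without KO control library 1, which was as high as the UVB libraries, the KO difference was 0.36 (adjusted p = 0.00466), without KO UVB library 1 its adjusted p was 0.0422, and limma voom gave 0.0127. KO and WT did not differ past the test in either treatment (-0.18 without and -0.06 with UVB, adjusted p = 0.568 and 0.785).

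Among the endothelin genes, Edn1 was called lower after UVB in WT, and Edn2 and Edn3 were called lower in KO and also had lower values, not called, in WT. The interaction was called for none of them (adjusted p = 0.292, 0.747 and 0.706). Edn1, which keratinocytes and blood vessels release and which acts on melanocytes through the receptor encoded by Ednrb, held 14.7, 13.2, 10.3 and 15.0 CPM in untreated WT skin and 9.32, 5.50, 9.11 and 10.1 in WT UVB. Every WT UVB library was below every WT control library, with library 2 the lowest. In KO the values were 13.7, 15.1, 10.9 and 7.93 without UVB and 12.3, 12.8, 11.2 and 15.5 with it, overlapping in part. Edn1 thus fell in WT by 0.64 ± 0.21 on the log2 scale (adjusted p = 0.0427), while the KO difference was 0.12 ± 0.21 (adjusted p = 0.692). The WT call was fragile: it held in 7 of 16 fits that each left out 1 library, and was furthest from the threshold without WT UVB library 2 (-0.47, adjusted p = 0.133). That library also had the highest anagen follicle sum of its group, at 192 CPM. Besides it, leaving out any other WT library except control library 3, or KO control library 3 or KO UVB library 2, gave adjusted p from 0.0516 to 0.119, and the call was also lost with no filter (0.0506), unstranded counts (0.0582) and the replicate block (0.0698). After UVB every KO library lay above every WT library, by 0.61 ± 0.21 (unadjusted p = 0.0106, adjusted p = 0.163), and the interaction was 0.76 ± 0.29 (unadjusted p = 0.0196, adjusted p = 0.292). Among all tested genes, 8.16% separated the KO and WT libraries with UVB without overlap. The 8 endothelial markers summed to 497 to 593 CPM in WT control, 429 to 538 in WT UVB, 451 to 562 in KO control and 466 to 620 in KO UVB, with 0 of 8 called in any of the 5 contrasts. The 8 keratinocyte markers summed to 8057 to 11673 CPM in WT control and 28856 to 37936 in WT UVB. In KO they summed to 9880 to 16333 without UVB and 19655 to 60804 with it. The part of either cell type in the Edn1 values was not tested.

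Edn3, the endothelin that neural crest and melanoblasts depend on during development, fell in KO. WT control libraries held 1.88, 1.61, 2.49 and 2.51 CPM and WT UVB libraries 1.38, 1.52, 1.41 and 1.22. KO control libraries held 2.72, 2.50, 1.86 and 2.44 CPM and KO UVB libraries 0.747, 1.37, 0.877 and 1.82. In both genotypes all UVB libraries lay below all control libraries. The change was -0.98 ± 0.25 in KO (adjusted p = 0.00801), and all 16 fits that left out 1 library kept the call, with adjusted p from 0.00121 to 0.0282. In WT the difference was -0.62 ± 0.25 (adjusted p = 0.094), called by limma voom (0.0227) and in a fit of the 2 WT groups alone (0.048). The interaction of -0.36 ± 0.35 (adjusted p = 0.706) gave no tested difference between these effects.

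Edn2, which shares the endothelin receptors, rested on 2 to 18 reads a library. Its levels were 0.447, 0.372, 0.393 and 0.358 CPM in WT control against 0.185, 0.237, 0.291 and 0.222 in WT UVB, without overlap. In KO the values were 0.535, 0.763, 0.479 and 0.388 CPM without UVB and 0.199, 0.399, 0.0923 and 0.273 with it, where the highest UVB value passed the lowest control value. The gene was called lower in KO (-1.19 ± 0.35, adjusted p = 0.0173) and not in WT (-0.74 ± 0.37, adjusted p = 0.178). Leaving out KO UVB library 3, which had 2 reads, gave an adjusted p of 0.0554, and leaving out KO control library 2 gave 0.073. The call was also lost with limma voom (-0.78, adjusted p = 0.0689) and with no filter (0.059). Edn2 lies on chromosome 4, as does Tnfrsf1b, and KO against WT was not called for it in either treatment (adjusted p = 0.69 without and 0.999 with UVB).

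**Figure D3:**
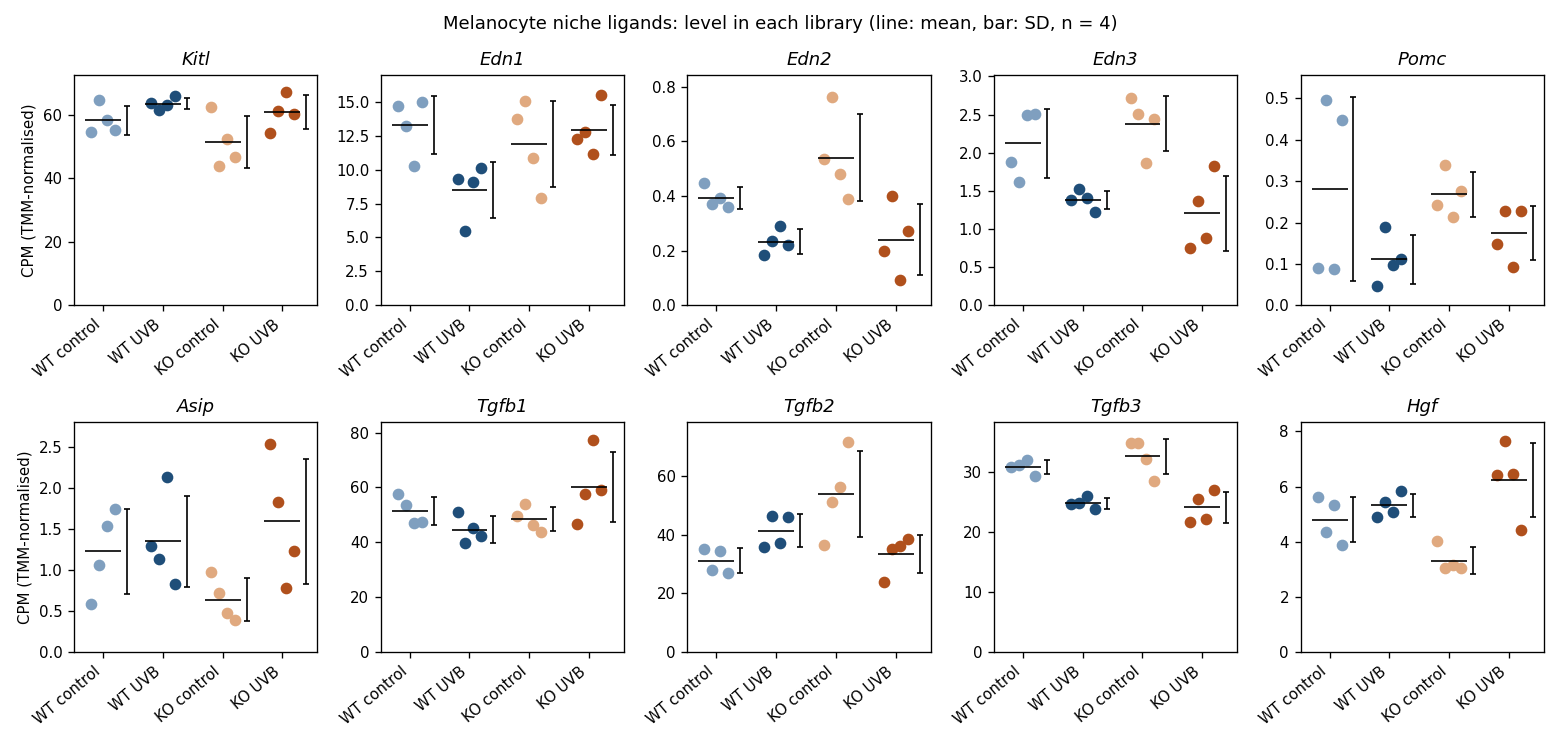
TMM-normalised CPM of the 10 ligands in each library, 1 panel a gene with its own axis from 0, points for libraries, lines for group means and bars for SD (n = 4). Tgfb3 and Edn3 drop with UVB in both genotypes without overlap, Edn1 separates in WT and overlaps in KO, and Hgf separates in KO and overlaps in WT.

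The melanocortin pair was scarce in whole skin. Pomc, the precursor of alpha-melanocyte-stimulating hormone and adrenocorticotropin, had 2, 8, 2 and 10 reads in WT control, 1, 4, 2 and 2 in WT UVB, 5, 8, 4 and 5 in KO control and 3, 4, 2 and 5 in KO UVB. These counts were below the filter, so no test was made, and a change in Pomc was not detectable at this depth. Its receptor gene on pigment cells, Mc1r, had 0 to 9 reads a library and was not tested either.

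Asip, the antagonist of melanocortin at MC1R made by the dermal papilla, rose after UVB in KO. It held 0.581, 1.05, 1.53 and 1.75 CPM in untreated WT skin and 1.29, 1.14, 2.13 and 0.833 in WT UVB, from 7 to 51 reads a library over the 4 groups. Among KO libraries, those without UVB held 0.972, 0.721, 0.479 and 0.388 CPM and those with UVB 2.54, 1.83, 0.785 and 1.23, with the lowest UVB library inside the control range. The difference was 1.29 ± 0.43 in KO (adjusted p = 0.0327) and 0.13 ± 0.41 in WT (adjusted p = 0.848), with an interaction of 1.15 ± 0.59 (adjusted p = 0.432). KO control averaged 0.64 CPM against 1.23 in WT control (-0.92 ± 0.44, unadjusted p = 0.0511, adjusted p = 0.461). With UVB the means were 1.59 in KO and 1.35 in WT (0.23 ± 0.40, adjusted p = 0.815). Neither genotype difference was called. The KO call held in 11 of 16 fits that left out 1 library and was furthest from the threshold without KO UVB library 1 (0.97, adjusted p = 0.113). It was lost without KO UVB library 2 and without KO control library 2, 3 or 4 (adjusted p of 0.0663, 0.0605, 0.0867 and 0.0789), with the replicate block (0.0576) and in a fit of the 2 KO groups (0.0522). In GENCODE vM21 the gene overlaps Raly and Gm14226 on the same strand, so assignment of its reads is uncertain. The 12 dermal papilla genes summed to 99.9 to 122 CPM in KO control and 108 to 140 in KO UVB. Of the 11 tested, Lepr, Rspo3 and Sox2 were called lower and Crabp1 higher there, which is 36.4% called against 32.3% of all genes. The median of the 11 was -0.22, and the part of these genes in the Asip result was not tested.

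TGF-beta is made as a latent complex, stored in the matrix and released by proteases and integrins. Tgfb3, made by fibroblasts, muscle and hair follicle cells, fell in both genotypes: WT control libraries held 30.8, 31.1, 32.0 and 29.3 CPM and WT UVB libraries 24.6, 24.8, 25.9 and 23.8. KO control libraries held 34.7, 34.8, 32.2 and 28.6 CPM and KO UVB libraries 21.7, 25.4, 22.2 and 27.0. Control and UVB libraries did not overlap in either genotype. The changes were -0.31 ± 0.08 in WT (adjusted p = 0.0163) and -0.44 ± 0.08 in KO (adjusted p = 0.00134), and the interaction was -0.12 ± 0.12 (adjusted p = 0.703). The KO call held in all 25 alternative settings, whereas the WT call was lost with unstranded counts (adjusted p = 0.059) and without WT UVB library 4 (0.0597). On the opposite strand Tgfb3 overlaps Ttll5, Gm37804 and Gm48008. Its forward-strand count was 2 to 14 reads a library, against 429 to 821 on the reverse strand. Why the call was lost with unstranded counts was not tested. Without overlap between control and UVB were 5 of the 9 ligands in WT (Edn1, Edn2, Edn3, Tgfb2 and Tgfb3) and 3 in KO (Edn3, Tgfb3 and Hgf), against 28.2% and 25.1% of all tested genes. After UVB in KO, 7 of 8 skeletal muscle markers and 3 of 8 fibroblast markers were called lower, beside 15.1% of all genes. In WT it was 1 of 8 in each list, beside 8.6% of all genes. The part of these cell types in the Tgfb3 values was not tested.

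Tgfb2, the isoform known from follicle growth and regression and from melanocyte stem cell quiescence, had UVB differences of opposite sign in the genotypes, 1 of them called. It held 35.0, 28.0, 34.5 and 27.1 CPM in untreated WT skin and 35.9, 46.4, 37.1 and 46.0 in WT UVB, so that every WT UVB library was higher. KO control libraries held 36.5, 50.9, 56.1 and 71.7 CPM and KO UVB libraries 24.0, 35.1, 36.0 and 38.4, where only KO control library 1 reached into the UVB range. It fell in KO (-0.69 ± 0.18, adjusted p = 0.0103), a change called in 24 of 25 alternative settings and not in a fit of the 2 KO groups (0.0503). The WT difference was 0.41 ± 0.18 (unadjusted p = 0.0417, adjusted p = 0.135), called by limma voom (0.0283) and in a fit of the 2 WT groups (0.0263). The interaction was -1.09 ± 0.26 (unadjusted p = 0.000699, adjusted p = 0.13), which DESeq2 (0.0108), limma voom (0.0157) and the fit without KO control library 1 (0.0368) called. The part of tissue make-up in these UVB differences of Tgfb2 was not tested.

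Between genotypes without UVB, Tgfb2 was the one ligand of 9 called, against 1.69% of all tested genes. All 4 KO control libraries lay above all 4 WT control libraries, a separation without overlap that 7.68% of genes showed, with a difference of 0.79 ± 0.18 (adjusted p = 0.0404). The call held in 13 of 25 alternative settings and in 9 of 16 fits that left out 1 library. Leaving out WT control library 4, 2, 1 or 3 gave adjusted p of 0.135, 0.125, 0.0703 and 0.0584, and leaving out KO control library 4, 3 or 2 gave 0.12, 0.103 and 0.0717. It was also lost with library totals (0.0652), with no filter (0.0654), with a mean count of at least 100 (0.0776), in the fit of 2 groups (0.069) and with the replicate block (0.0565), while the log2 difference ranged from 0.62 to 0.94 over the fits that left out 1 library. In the same comparison 15 of 19 anagen follicle genes were called lower in KO. The 8 fibroblast genes summed to 28873 to 62729 CPM in untreated WT skin and 55111 to 59257 in KO control, and the 8 skeletal muscle genes to 13359 to 24252 and 21250 to 36049. The part of follicle stage or tissue make-up in the Tgfb2 difference was not tested.

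The Tgfb2 promoter is shown because Tgfb2 had the smallest interaction p of the 9 tested ligands. The 250 bases before its start site read as follows, 5′ to 3′, from RefSeq on GRCm38.p6, minus strand, chr1:186705990-186706239, with capitals for a CCAAT box, a CACGTG E-box and a TATAAA box.
Tgfb2 promoter: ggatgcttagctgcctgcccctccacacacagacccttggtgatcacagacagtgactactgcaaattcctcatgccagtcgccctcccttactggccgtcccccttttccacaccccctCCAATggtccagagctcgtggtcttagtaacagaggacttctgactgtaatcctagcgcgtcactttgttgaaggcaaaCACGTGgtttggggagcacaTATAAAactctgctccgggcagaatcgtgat
These motifs begin 130, 51 and 31 bases before the start site. Of 32851 promoters of the same length, searched on both strands, 33.8% held CCAAT, 6.02% CACGTG and 12.4% TATAAA. Promoters were found for 9 of the 10 ligands, not for Tgfb3. TATAAA was also in the Kitl and Pomc promoters, 25 bases before the start in each, and CCAAT in those of Edn1 and Asip, 203 and 181 bases before it. GGGCGG (GC box, 32.7% of promoters) occurred 5 times in the Tgfb1 promoter, 3 times in that of Kitl and once in that of Pomc. Among these sites, those of different motifs did not overlap, while a pair of GC boxes of Kitl overlap each other. The NF-kB motif, present in 3.9% of promoters, was in the Pomc window, while the AP-1 motif TGANTCA (6.75%), the SMAD motif GTCTAGAC (0.167%) and the CRE TGACGTCA (1.55%) were in no ligand's window. A match is a string of letters in this window and no evidence of binding.

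Tgfb1, the isoform of immune cells, platelets and wounded epidermis, had UVB estimates of opposite sign in the genotypes, neither called. Untreated WT libraries held 57.5, 53.4, 47.2 and 47.4 CPM and WT UVB libraries 51.1, 39.8, 45.1 and 42.4. In KO the levels were 49.6, 54.0, 46.4 and 43.7 CPM without UVB and 46.7, 57.7, 77.4 and 59.1 with it. KO UVB library 3 was the highest of the 16 and KO UVB library 1 lay within the control range. The UVB difference was -0.20 ± 0.13 in WT (adjusted p = 0.289) and 0.31 ± 0.13 in KO (adjusted p = 0.0733). With UVB, KO exceeded WT by 0.43 ± 0.13 (unadjusted p = 0.0041, adjusted p = 0.117), which DESeq2 (0.0432), limma voom (0.0317) and the fit without KO UVB library 1 (0.0373) called. In that contrast 0 of 9 ligands were called by edgeR against 0.856% of all genes, and 2 (Tgfb1 and Edn1) had an unadjusted p under 0.05 against 16.3%. The 7 macrophage markers followed the same library order in KO UVB, with sums of 1333, 2210, 2697 and 2291 CPM in libraries 1 to 4, and 1031 to 1587 in WT UVB. In the other groups the orders differed in part: libraries 1 and 2 traded places in WT control and KO control, and libraries 3 and 4 in WT UVB. None of the 7 was called in any contrast, and their part in the Tgfb1 values was not tested.

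Hgf, the growth factor of fibroblasts and other mesenchymal cells that activates MET, rose in KO. WT control libraries held 5.63, 4.34, 5.33 and 3.90 CPM and WT UVB libraries 4.89, 5.45, 5.09 and 5.83, overlapping. KO control libraries held 4.03, 3.05, 3.14 and 3.05 CPM and KO UVB libraries 6.42, 7.64, 6.46 and 4.42, all UVB libraries above all controls. The KO change was 0.91 ± 0.17 (adjusted p = 0.00132) and was called in all 25 alternative settings. In WT the difference was 0.14 ± 0.17 (adjusted p = 0.587). The interaction was 0.76 ± 0.24 (unadjusted p = 0.00636, adjusted p = 0.229), called by limma voom alone (0.0408). KO control was below WT control by a log2 value of -0.53 ± 0.17, with the groups overlapping at 1 KO library (unadjusted p = 0.00746, adjusted p = 0.189). An unadjusted p under 0.05 was reached there by 2 of 9 ligands, Hgf and Tgfb2, against 10.9% of all genes. With UVB the genotypes differed by 0.23 ± 0.17 (adjusted p = 0.525). Neutrophil markers summed to 11.0 to 32.1 CPM in KO control and 38.7 to 370 in KO UVB. Of them, 6 of 6 tested were called higher, beside 17.2% of all genes. Their part in the Hgf values was not tested. The annotated genes Gm43489 and Gm42975 overlap Hgf on the same strand, so some of its reads may be assigned elsewhere.

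Of 14 receptor genes of the ligands 11 were tested, and 3 fell and 0 rose after UVB in each genotype. That is 27.3% called, all lower, against 18.8% of all genes in WT (8.6% lower) and 32.3% in KO (15.1% lower), with a median log2 fold change of -0.21 in WT and -0.06 in KO against -0.03 and -0.02 over all genes. Met, the HGF receptor, fell by 0.49 ± 0.09 in both (adjusted p = 0.00223 in WT and 0.00144 in KO), from 39.5 ± 2.69 to 28.2 ± 1.59 CPM in WT and from 41.7 ± 3.86 to 29.8 ± 3.73 in KO (SD, n = 4). Kit, the receptor of KIT ligand on melanocytes and mast cells, fell in WT from 25.6 ± 1.29 to 19.0 ± 1.39 CPM (-0.43 ± 0.11, adjusted p = 0.0178). In KO it was 20.5 ± 4.16 without and 17.8 ± 1.18 with UVB (-0.20 ± 0.12, adjusted p = 0.194). Tgfbr3, the co-receptor that presents TGF-beta 2, fell in WT (-0.44 ± 0.13, adjusted p = 0.0281), whereas the kinase receptor Tgfbr1 fell in KO (-0.27 ± 0.07, adjusted p = 0.00606) and in WT stood at -0.19 ± 0.07 (adjusted p = 0.0503). Mc2r, the receptor of adrenocorticotropin, fell in KO (-0.98 ± 0.28, adjusted p = 0.0141) from a mean of 2.12 to 1.07 CPM. Its libraries overlapped, at 1.33 to 2.88 CPM in KO control and 0.646 to 1.41 in KO UVB. In WT it stood at -0.51 ± 0.28, not called (adjusted p = 0.217).

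Ednrb, the endothelin receptor of melanocytes, had no call in any contrast and varied widely between libraries. It averaged 88.4 ± 32.6 CPM in WT control, 56.5 ± 11.4 in WT UVB, 91.6 ± 28.6 in KO control and 126 ± 34.4 in KO UVB. After UVB every KO library exceeded every WT library, by 1.16 ± 0.27 (adjusted p = 0.0616), and the interaction was 1.11 ± 0.38 (unadjusted p = 0.0114, adjusted p = 0.262). Ednra and Tgfbr2 were not called after UVB (-0.02 and -0.21 in WT, 0.03 and 0.05 in KO, adjusted p from 0.249 to 0.927). The melanocyte marker sum, which bears on Kit and Ednrb, was 93.2 to 125 CPM in WT control, 92.8 to 111 in WT UVB, 72.2 to 96.6 in KO control and 69.7 to 72.0 in KO UVB. Of its 9 tested genes, Sox10 and Mitf were called lower after UVB in both genotypes. That is 22.2%, against 8.6% of all genes called lower in WT and 15.1% in KO. The median of the 9 after UVB was 0.03 in WT and -0.08 in KO. Pmel was called lower in KO than WT with UVB, where 0.856% of all genes were called. Between genotypes the median of the 9 was -0.69 without and -0.60 with UVB. Sox10 is also a Schwann cell gene. Of the Schwann cell markers, 7 of 8 in WT and 5 of 8 in KO were called lower after UVB, beside 8.6% and 15.1% of all genes. The summed CPM of 8 mast cell markers overlapped between all groups (177 to 472 CPM in KO control). Among them, Fcer1a was called lower after UVB in WT, where the median of the 8 was -0.28, and the part of these cell types in the receptor values was not tested.

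Among genes that process, activate or restrain the ligands, 31 of 36 were tested. In WT 1 rose and 6 fell (22.6% called against 18.8% of all genes), and in KO 3 rose and 7 fell (32.3%, the same share as over all genes). Called lower were 19.4% in WT and 22.6% in KO, against 8.6% and 15.1% of all genes. The medians were -0.10 and -0.05, against -0.03 and -0.02 over all genes. Spint1, an inhibitor of the protease that activates HGF, rose in WT (0.64 ± 0.18, adjusted p = 0.0209) and in KO (0.48 ± 0.18, adjusted p = 0.0479). Ltbp4, a matrix protein that binds latent TGF-beta 1, fell from 427 ± 15.9 to 271 ± 22.9 CPM in WT (-0.66 ± 0.09, adjusted p = 0.000146) and from 336 ± 21.1 to 238 ± 24.1 in KO (-0.50 ± 0.09, adjusted p = 0.000819). Ltbp2, a related matrix protein, fell in KO (-0.96 ± 0.18, adjusted p = 0.00125) and stood at -0.51 ± 0.18 in WT (adjusted p = 0.0563). Itgb8, whose integrin releases active TGF-beta, and Furin, which cleaves its precursor, rose in KO (0.69 ± 0.25 and 0.36 ± 0.10, adjusted p = 0.0423 and 0.0137). Both overlapped between control and UVB there, and Itgb8 ran from 21.0 to 26.4 CPM without and 18.2 to 55.4 with UVB. In WT they stood at 0.34 and 0.19, not called (adjusted p = 0.354 and 0.197).

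On the endothelin side of that list, Ece1, the main enzyme that cuts big endothelins to the active peptide, fell in WT (-0.24 ± 0.07, adjusted p = 0.0336) and was at -0.05 ± 0.07 in KO (adjusted p = 0.655). Kel, a red-cell protease able to cleave big endothelin-3, was called lower in both genotypes. It had 2 to 21 reads a library in WT control and 3 to 31 in KO control, against 0 to 1 in WT UVB and 0 in all KO UVB libraries. Atrnl1, a relative of the attractin needed by agouti, fell in both (-0.27 ± 0.07 and -0.37 ± 0.07, adjusted p = 0.0104 and 0.000839). The other called genes were Adam33 and Mmp9 in WT and Ltbp3, Adam33 and Itgav in KO, all lower.

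All 16 TGF-beta target and feedback genes were tested, and 18.8% were called in each genotype, the share of all genes in WT and below the 32.3% of all genes in KO. Called lower were 18.8% in WT and 12.5% in KO, against 8.6% and 15.1% of all genes. In WT 3 fell, Smad7 (-0.54 ± 0.13, adjusted p = 0.00823), Bambi (-0.67 ± 0.17, adjusted p = 0.0143) and Pmepa1 (-0.47 ± 0.15, adjusted p = 0.0418), each a known brake on TGF-beta signalling. Their KO values were -0.29, -0.37 and 0.11, not called (adjusted p = 0.0879, 0.115 and 0.599). In KO, Skil, a repressor that TGF-beta induces, rose (0.33 ± 0.12, adjusted p = 0.0489), and Ltbp2 and the collagen gene Col1a1 (-0.90 ± 0.24, adjusted p = 0.00902) fell. Skil, Ltbp2 and Col1a1 stood at 0.26, -0.51 and 0.006 in WT, not called (adjusted p = 0.148, 0.0563 and 0.99). The medians were -0.13 in WT and -0.19 in KO, against -0.03 and -0.02 over all genes. Pmepa1 was at 67.9 ± 10.9 CPM in KO UVB and 44.8 ± 5.93 in WT UVB, a difference of 0.60 ± 0.15 that was not called (adjusted p = 0.0706). Col1a1 is also one of the 8 fibroblast markers, of which 3 were lower after UVB in KO and 1 in WT.

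**Figure D4:**
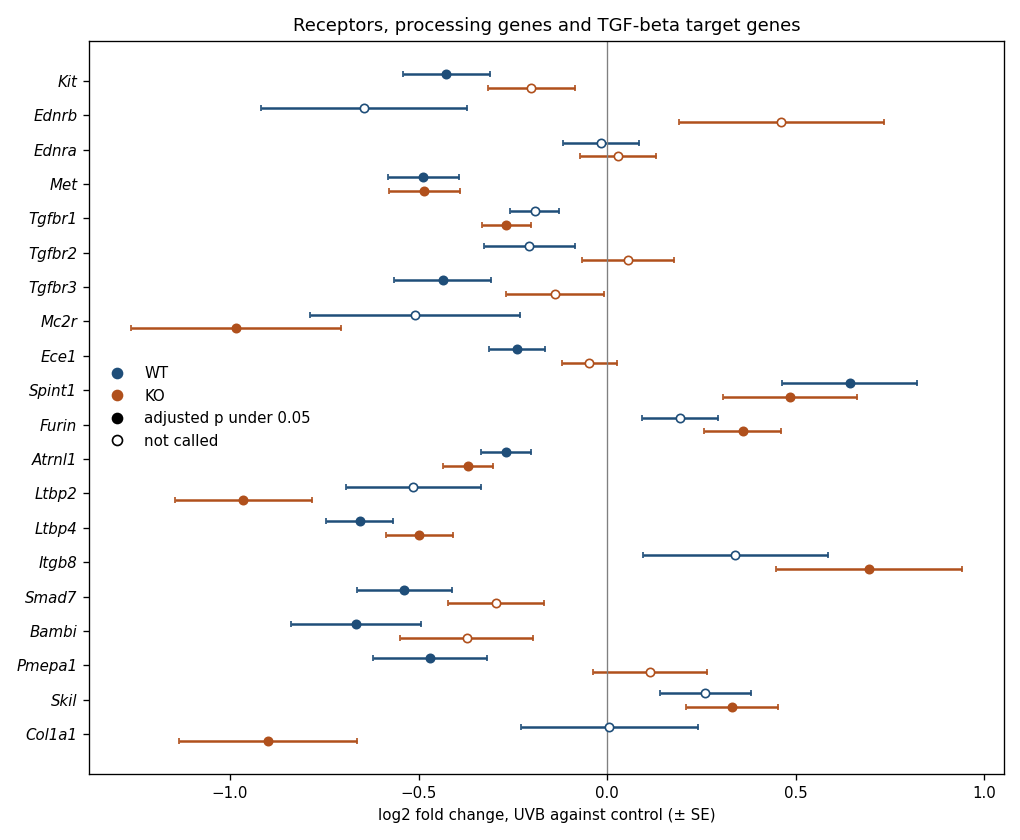
Log2 fold change of UVB against control (± SE, edgeR) for named receptors, processing genes and TGF-beta target genes in WT (blue) and KO (orange), filled where adjusted p is under 0.05. Met, Ltbp4 and Atrnl1 are filled below 0 in both genotypes, Spint1 is filled above 0 in both, and Ednrb is open at -0.64 in WT and 0.46 in KO.

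Other paracrine factors reported to act on melanocytes were called in 5 of 28 tested genes in WT (2 higher, 3 lower) and 11 of 28 in KO (7 higher, 4 lower), of 31 in the list. These shares of 17.9% and 39.3% stood beside 18.8% and 32.3% of all genes. Il1a, an alarm cytokine of keratinocytes, rose from 9.19 ± 1.59 to 21.1 ± 3.11 CPM in WT (1.20 ± 0.18, adjusted p = 0.000282) and from 9.5 ± 1.89 to 27.6 ± 5.61 in KO (1.54 ± 0.18, adjusted p = 3.86e-05). Wnt4, a WNT ligand of skin and other epithelia, rose in both (1.35 ± 0.25 and 1.01 ± 0.25, adjusted p = 0.00171 and 0.00621). Ptgs2, the inducible enzyme of prostaglandin synthesis, rose in KO from 2.2 ± 0.611 to 8.57 ± 5.34 CPM (1.96 ± 0.39, adjusted p = 0.00193) and was 2.96 ± 1.01 in WT UVB. Nrg1, a growth factor read by ERBB receptors, rose in KO (2.43 ± 0.58, adjusted p = 0.00531), and Il6, Il1b and Wnt10a were the other higher genes there. Nrg1 ran from 0.532 to 1.16 CPM in KO control and from 0.82 to 8.22 in KO UVB, with overlap.

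Bmp4, a dermal signal that holds follicle stem cells at rest, fell in WT (-0.55 ± 0.18, adjusted p = 0.04) and KO (-0.95 ± 0.18, adjusted p = 0.00117). Fgf7 and Cxcl12, growth and migration factors of dermal cells, fell in WT (-0.64 ± 0.16 and -0.41 ± 0.11, adjusted p = 0.0138 and 0.0183). The WNT pathway genes Dkk3 and Wnt10b and the Notch ligand Dll1 fell in KO (-0.66, -1.22 and -0.52, adjusted p = 0.0036, 0.0108 and 0.0241). In WT these 3 stood at -0.41, -0.81 and -0.18, not called (adjusted p = 0.0637, 0.0959 and 0.46). In none of the 4 pathway lists was a gene called between genotypes or in the interaction. By UVB, 5 of 8 keratinocyte markers were called higher in each genotype, beside 10.2% of all genes in WT and 17.2% in KO. Their sums were 8057 to 11673 CPM in WT control, 28856 to 37936 in WT UVB, 9880 to 16333 in KO control and 19655 to 60804 in KO UVB. Bulge marker sums were lower with UVB in both genotypes (1832 to 2726, 1413 to 1711, 1595 to 2498 and 987 to 1154 CPM in the same order). Called lower were 1 of 9 in WT, which is 11.1% and near the 8.6% of all genes. In KO it was 6 of 9, which is 66.7% against 15.1% of all genes. Neutrophil marker sums were higher (12.1 to 17, 19.6 to 49.7, 11.0 to 32.1 and 38.7 to 370 CPM in that order). Called higher were 2 of 6 tested in WT and 6 of 6 in KO, beside 10.2% and 17.2% of all genes. The part of these cell types in the ligand results was not tested.

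Genes with the most similar profile were found for each ligand from the root-mean-square difference of standardised log2 CPM over the 16 libraries, among 13037 genes. The closest match of all was that of Tgfb3 to Slc22a5, a carnitine transporter gene, at 0.228, followed by Tgfb1 to Me2 at 0.316, Sirpa, a receptor of myeloid cells, at 0.326 and Vav1, a signalling protein of blood cells, at 0.329. Hgf was nearest to the cell division genes Smc2 (0.342), Kif20b (0.406) and Dbf4 (0.406). Edn3 was nearest to Bmp4 (0.374), which was also on the paracrine list, and Edn2 came within 0.46 of Tgfb3. Nearest to Tgfb2 were Zfp469 (0.569), to Kitl Exo5 (0.534), to Edn1 Tnfrsf25 (0.565) and to Asip Suds3 (0.579). The median difference over all genes was 1.4 to 1.43, and these values describe the libraries without a test.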

How the data were processed

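RNA was extracted with Trizol and made into poly(A)-enriched, directional libraries, per the labels' protocols. Reads were aligned to GRCm39 with STAR, per the submitters' processing notes. Its version and the annotation are not given there. The deposited values are raw read counts per gene, and the reverse-strand count was used (95.74% of stranded reads). STAR's summed lines for unassigned reads were left out, among them 10.7 to 19.5% of reads unmapped. A combined table with 17 unassigned columns was not used. GENCODE vM21 (GRCm38) named 52083 of 55359 identifiers, leaving 1.23% of reads unnamed, and gave exon lengths.

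After edgeR's filterByExpr, 17531 genes (99.9% of reads) were fitted in 1 model of the 4 groups with edgeR 4.0.16 (TMM, robust quasi-likelihood test) in R 4.3.3, tested first on simulated data. P-values were Benjamini-Hochberg adjusted over all tested genes, and a gene was called at an adjusted p under 0.05. CPM are TMM-normalised, with factors from 0.94 to 1.07. Alternatives included DESeq2 1.42.0 and limma 3.58.1. Named genes were the ligands, their main receptors and up to 4 called genes a direction, list and contrast. The profile comparison took named genes with a mean count of at least 50 and log2 CPM with a prior count of 2. The ligands and gene lists were chosen with earlier results of these data known.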

Additional observations from a re-analysis of the deposited data

Results flagged for a closer look

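One library stood far from the rest of its group. In KO control, Hgf was 4.03 CPM in library 1, while the nearest of the other libraries held 3.14, and this gap was 0.907 of the group's whole range, above Dixon's 95% critical value for 4 libraries. It was 1 of 40 groups of 4 checked over the 10 ligands, and chance alone flags about 1 group in 20. The rise of Hgf with UVB in KO stayed called without this library, as in all other fits that left out 1 library.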

How the results depend on the processing

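Of 1097 values of 45 ligand and contrast pairs under 25 alternatives, 1033 kept their direction and side of the threshold, 38 lost a call, 16 gained one and 10 changed sign. The number of called ligands for UVB in WT, 2 in the fit reported, was 4 with limma voom and with the fit of the 2 groups, 1 with no filter beyond 1 read and with the replicate block, and 0 with unstranded counts, and limma voom called 5117 genes in all against 3290. For UVB in KO, 6 became 3 with a mean count of at least 100 (Edn2, Edn3 and Asip then go untested) and 3 with the fit of the 2 groups, which called 3506 genes against 5666. With that fit the order of the counts in WT and KO is reversed, both for the ligands and for all genes. The 1 ligand called between genotypes without UVB, Tgfb2, became 0 with library totals, no filter, a mean count of at least 100, the fit of the 2 groups and the replicate block. There, 297 genes in all became 452 with DESeq2, 589 with limma voom and 93 with a mean count of at least 100. With UVB, 0 ligands became 1 (Tgfb1) with DESeq2 and with limma voom, and 150 genes became 658, 1117, 79 (2 groups) and 77 (replicate block). In the interaction, 0 ligands became 1 with DESeq2 (Tgfb2) and 2 with limma voom (Tgfb2 and Hgf), and 4 genes became 210, 459, 22 (no filter) and 7 (replicate block). The causes of these shifts were not tested.

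Leaving out 1 library at a time gave 0 to 2 called ligands and 2039 to 3707 genes for UVB in WT, 4 to 7 and 4280 to 6350 for UVB in KO, 0 to 1 and 161 to 362 between genotypes without UVB, 0 to 1 and 59 to 487 with UVB, and 0 to 1 and 2 to 110 in the interaction. Signs changed in uncalled values: Edn3 between genotypes without UVB was -0.00184 with limma voom, and Edn2 between genotypes with UVB was -0.029 with library totals and -0.307 to 0.288 leaving out 1 library. Leaving out 1 library also gave -0.154 to 0.356 for Asip with UVB in WT, -0.106 to 0.54 for Asip between genotypes with UVB, and -0.0227 to 0.255 for Edn1 with UVB in KO.

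The labels give replicate numbers without stating a pairing. Over 24 same-numbered pairs the correlation of deviations from group means ran from -0.403 to 0.219, with 3 above 0.1. Pairs with different numbers ran from -0.217 to 0.361, so these correlations cannot decide whether same-numbered libraries are paired. With the number as a block, 5 ligands (against 6) were called for UVB in KO and 0 between genotypes or in the interaction. At the depth of these libraries Pomc and Mc1r could not be tested, and Edn2 and Asip rest on few reads.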
